A study of Homo sapiens with 6 samples.

Results

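The comparison set 2 RNA-seq libraries labelled sh4 against 2 labelled NC, out of 6 libraries in the series. The other 2 libraries, labelled sh1, entered the fit as a shared estimate of the spread and are given beside sh4 where a result turns on them. All libraries are labelled A549, an established line of human lung adenocarcinoma cells, and no other genotype, agent or time point is given. The series title speaks of a knockdown of a gene it calls DSTY. The labels expand none of DSTY, NC, sh1 and sh4, and no source used here gives the vector, the time after its delivery or whether the cells were 1 clone or a pool. Features were included at 1 FPKM or more in at least 2 of these 4 libraries. This left 12310 of the 54532 gene IDs in the files, and 24306 IDs were above 0 in at least 1 of the 4. FPKM counts the fragments of a gene relative to its length in kilobases and to the depth of the library.

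The name sh4 has the form commonly given to a short hairpin RNA. A short hairpin is transcribed inside the cell, cut to a small interfering RNA and loaded into the RISC complex, which lowers transcripts that match it. It can also lower transcripts that match it only in part, which is why a second hairpin against the same target is often run beside the first. A control hairpin with no intended target usually serves as the baseline.

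The IDs and the labels name different species. All 54532 IDs carry Ensembl's mouse prefix and 0 carry the human prefix, so the table of 62700 human gene names used here could not match them. A table of mouse gene names was not at hand. Results are therefore given by ID, and gene functions, positions and sequences are left out. The target gene and the defining markers of A549 were not analysed here for the same reason. The 867 symbols in 54 lists of pathway and cell type genes could not be compared with the IDs either, since the IDs are not symbols.

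Depth was of the same order in the libraries compared, with both sh4 libraries deeper than both NC libraries. The recovered reads came to 15423883 and 14999784 in NC, and to 17943935 and 17579948 in sh4. At the median gene length of 2690 bp, 1 read stood for 0.0201 to 0.0242 FPKM over the 6 libraries. Nothing in the labels says that replicates came from separate cultures, so the p-values measure the spread between these libraries, which may be technical.

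Replicates lay close together, and each sh4 library lay far from each NC library. On the log2(FPKM + 1) scale, the median absolute difference per ID was 0.08 between the NC replicates and 0.09 between the sh4 replicates. In the 4 pairings of an NC with an sh4 library it was 0.37 to 0.40. A difference of 1 log2 unit or more was seen for 109 IDs between the NC replicates and 103 between the sh4 replicates, against 1366 to 1502 IDs between the groups. The plot of differences between pairs of libraries shows 2 separate bundles of curves.

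**Figure D1:**
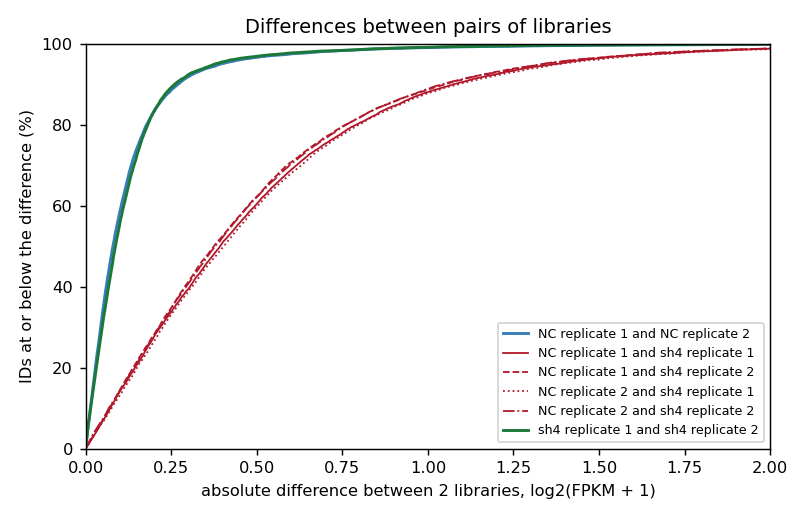
Share of the 12310 tested IDs (vertical axis, percent) whose absolute difference between 2 libraries, in log2(FPKM + 1), is at or below the value on the horizontal axis. The 2 replicate pairs rise steeply with medians of 0.08 and 0.09, and the 4 pairings of NC with sh4 lie together to the right with medians of 0.37 to 0.40.

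The make-up of the RNA pool moved by a similar contrast. The share of reads that would have to be reassigned among the tested IDs to turn one library into another was 2.87% between the NC replicates and 2.96% between the sh4 replicates. Between NC and sh4 libraries it was 16.3% to 17.0%. The difference was spread over many IDs. The 10 IDs with the largest shift held 6.65% of the difference between the group means, the first 100 held 22.8%, and 706 IDs were needed to reach 50%.

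The order of abundance shifted as well. Of the 100 IDs with the highest mean FPKM in NC, 80 were among the 100 highest in sh4, and 20 were replaced. Between replicates, 95 of 100 were shared in NC and 97 of 100 in sh4. Single NC and sh4 libraries shared 77 to 79 of 100. Among the 1000 highest IDs, 800 were shared between the group means, against 965 and 970 between replicates.

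Most tested IDs changed, and most changes were small. In sh4, 4404 IDs were higher than in NC (35.8% of those tested) and 4206 were lower (34.2%), together 69.9%, by limma on log2(FPKM + 1) with Benjamini-Hochberg adjusted p below 0.05 and n = 2 against 2. Both sh4 libraries lay above both NC libraries for 5187 IDs and below both for 5103, so the groups did not overlap for 83.6% of the IDs. With only 2 libraries a group, a sizeable part of the IDs would not overlap even without a difference between groups. Of the 8610 called IDs, the libraries of the groups overlapped for 5. A further 1685 IDs did not overlap and were not called. The median called rise was 0.53 log2 units and the median called fall was -0.50. In bulk RNA of this kind, fewer cells of a type and less RNA per cell cannot be told apart.

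The deposited values are scaled so that the typical gene is level between libraries, which sets the median log2 fold change (0.00) and bears on the balance of rises and falls. With the FPKM of each library brought to 1 common sum, the median was 0.04 and the calls were 4625 higher and 3831 lower. Such a sum leans on 1 ID of 57 bp. That ID had 26594 and 39986 FPKM in NC, where all IDs summed to 331258 and 345672. In sh4 it had 16613 and 17218, where they summed to 332668 and 323452. As deposited, the middle of the distribution ran from -0.37 (25th percentile) to 0.39 (75th), and the outer percentiles were -1.62 (1st) and 1.76 (99th). Under 0.25 log2 units lay 4298 IDs, of which 588 were higher, 615 lower and 3095 not called. From 0.25 to 0.5 there were 3375 IDs, with 1480 higher and 1507 lower. From 0.5 to 1 there were 3300 IDs, with 1587 higher and 1549 lower. From 1 log2 unit up, rises outnumbered falls. At least 1 log2 unit of change was called for 749 higher IDs (6.08% of those tested) and 535 lower IDs (4.35%).

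These larger changes took up little of each library. The 749 IDs that rose by at least 1 log2 unit held 2.63% and 2.67% of the reads in NC and 7.53% and 7.48% in sh4. The 535 IDs that fell by as much held 7.0% and 7.14% in NC and 2.44% and 2.55% in sh4. These IDs were picked by the same values, so the shares describe their weight in the libraries and test nothing. In the sh1 libraries, which share the NC libraries as their control, the same IDs held 5.70% and 5.77% for the risers and 3.95% and 3.97% for the fallers.

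Part of these counts follows from the filter. At 1 FPKM or more in both sh4 libraries and neither NC library were 494 IDs, which could pass only through sh4, and 446 of them were called higher. The reverse held for 400 IDs, of which 295 were called lower. Among the 10781 IDs at 1 FPKM or more in all 4 libraries, where the filter selects no direction, 71.1% were called. The ID nearest inside the filter had 0.7799 and 0.7417 FPKM in NC and 1.0000 and 1.1884 in sh4. The ID nearest outside had 0.5424 and 0.6701 in NC and 1.4175 and 0.9999 in sh4.

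**Figure D2:**
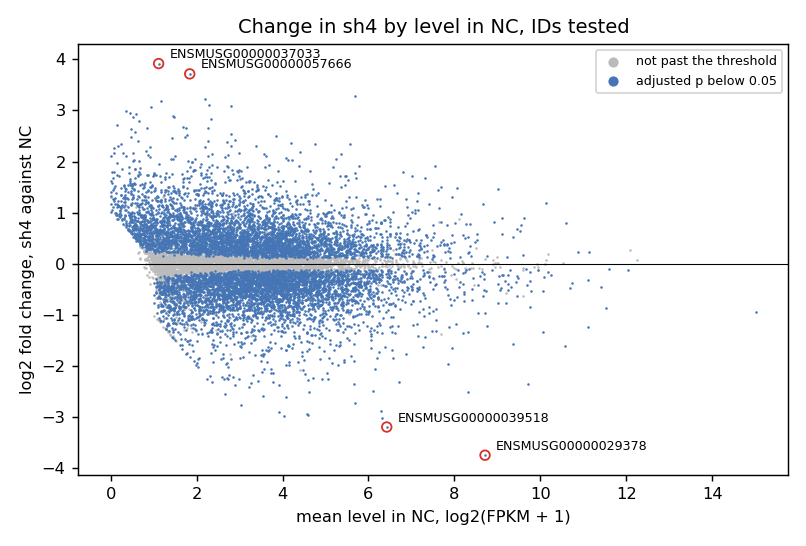
Log2 fold change of sh4 against NC (vertical axis) by mean level in NC in log2(FPKM + 1) (horizontal axis) for the 12310 tested IDs, with blue points past an adjusted p of 0.05 and grey points not. Red circles mark the 4 IDs named in the text, at 3.92, 3.71, -3.74 and -3.19, and the slanted edges at low levels come from the filter at 1 FPKM.

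With more recovered reads, the fitted error was smaller and a larger share of the IDs was called. Among the 1217 IDs with a mean under 50 recovered reads, the median standard error of the log2 fold change was 0.261, and 36.6% of the IDs were called. Among the 1948 IDs with 50 to under 200 reads, the error was 0.120 and 63.8% were called. From 200 to under 1000 reads (5060 IDs) the values were 0.0802 and 71.8%, from 1000 to under 5000 reads (3567 IDs) 0.0559 and 80.2%, and from 5000 reads (518 IDs) 0.0437 and 83.2%. The median absolute log2 fold change varied less, at 0.51 in the lowest class and 0.35 to 0.44 in the others. Replicates of the lowest class differed by a median of 0.28 in NC and 0.27 in sh4, against 0.05 to 0.12 in the others. Its 0.51 therefore holds noise as well as change. Counting error alone, taken from the reads without the pseudocount, would give 0.382 in the lowest class, above the fitted error because the pseudocount damps low values. In the highest class it would give 0.0168, below the fitted 0.0437, so spread beyond counting made up most of the error there. Reads copied by PCR are not independent molecules, and these errors cover counting only.

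The direction of change differed between genes of different length, where length is the whole number of bases recovered from the FPKM values. Of 3185 IDs with 1000 to under 3000 bp, 327 rose and 121 fell by at least 1 log2 unit (10.3% and 3.8%). Of 4388 IDs with 3000 to under 6000 bp, 271 rose and 135 fell by as much (6.18% and 3.08%). The balance was the other way for the 3383 IDs of 6000 bp or more, with 92 rises and 153 falls (2.72% and 4.52%). It was also the other way for the 1058 IDs of 200 to under 1000 bp, with 48 rises and 76 falls (4.54% and 7.18%). This last class had a median of 37.1 recovered reads. Among all tested IDs under 50 reads, 71 rose and 118 fell by as much, and rises outnumbered falls in every class with more reads. Length and read number were not separated.

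The median log2 fold change had the sign of this balance in each class. It was 0.12 for 1000 to under 3000 bp, 0.06 for 3000 to under 6000 bp, -0.11 for 6000 bp or more and -0.07 for 200 to under 1000 bp. Under total-read scaling these medians were 0.14, 0.08, -0.10 and -0.05, and with the FPKM of each library brought to 1 common sum 0.16, 0.10, -0.08 and -0.03, with no change of sign. By voom on the recovered reads, which needs no pseudocount, changes of at least 1 log2 unit were called for 460 rises and 209 falls from 1000 to under 3000 bp, and for 195 rises and 284 falls from 6000 bp.

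IDs under 200 bp stood apart in both direction and depth. Of 296 such IDs, 11 rose and 50 fell by at least 1 log2 unit (3.72% and 16.9%), with a median log2 fold change of -0.44. Their median was 3.25 recovered reads a library, since a short length turns few reads into a high FPKM. Replicates of these IDs differed by a median of 0.59 log2 units in NC and 0.52 in sh4, and the median standard error was 0.535. With so few reads the recovered length, the shortest that fits, may be too short, which makes membership of this class less certain. Of the 50 that fell, 49 had a mean under 50 reads, with a median of 7 reads in NC and 1 in sh4. By voom on the recovered reads of the same IDs, 13 of the 296 were higher and 64 lower. With so few reads, an ID that fell could pass the filter through NC alone, and one that rose through sh4 alone. How many did so was not counted, so the balance in this class is not free of the filter. Short IDs held 8.89% and 12.4% of the summed FPKM in NC and 5.74% and 6.10% in sh4, but 0.184% and 0.262% of the reads in NC and 0.122% and 0.1275% in sh4. In each of these libraries, most of both amounts came from a single ID of 57 bp, described next. The shares therefore say little about the other short IDs.

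One ID of 57 bp, singled out after its values were seen, was the highest in FPKM in every library. It measured 26594 and 39986 FPKM in NC (23933 and 34953 reads) and 16613 and 17218 in sh4 (17489 and 18011 reads). Both sh4 libraries lay below both NC libraries, and the NC replicates differed from each other by more than the sh4 replicates did. Its log2 fold change was -0.95 (SE 0.24, limma adjusted p = 0.0355). The call was kept with total-read scaling (-0.93, adjusted p = 0.0377), with 1 common FPKM sum (-0.90, 0.0306) and by voom (-0.95, 0.0398). The common sum includes the FPKM of this ID, so that setting is not an independent check. The call was lost without sh4 replicate 1 (-0.92, adjusted p = 0.149) and without sh4 replicate 2 (-0.97, adjusted p = 0.135), and in a fit over the 4 libraries alone (adjusted p = 0.0645). Without NC replicate 1 the log2 fold change was -1.24, and without NC replicate 2 it was -0.65. Those fits leave out the difference between the NC replicates and take the spread from the other groups, so their p-values are not given.

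**Figure D3:**
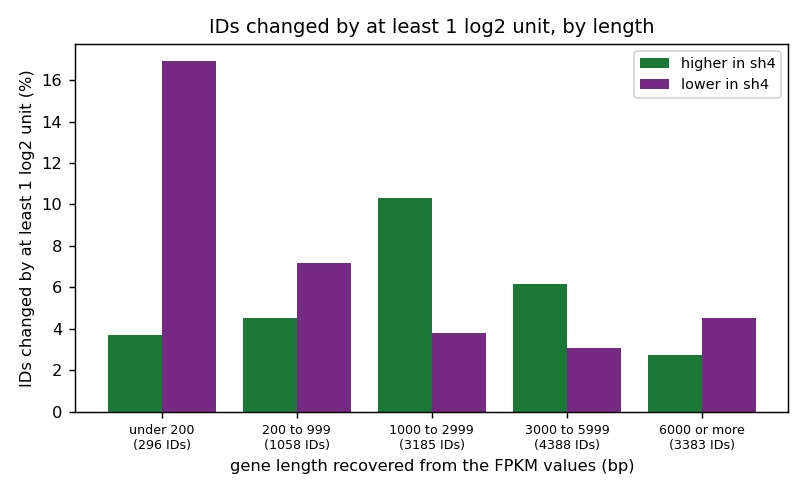
Percent of tested IDs in each length class (horizontal axis, bp) called higher (green) or lower (purple) in sh4 by at least 1 log2 unit. Rises exceed falls from 1000 to under 6000 bp, and falls exceed rises in the other classes, most under 200 bp, where 16.9% fell and 3.72% rose.

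The 2 largest rises and the 2 largest falls are given by ID. They were taken among IDs that were called, had a mean of at least 5 FPKM and did not overlap between groups, which held for 2937 higher and 2936 lower IDs. Beyond 3 log2 units lay 8 of the higher and 3 of the lower IDs. The 8 rose from a median of 3.08 FPKM in NC to 41.5 in sh4, and the 3 fell from a median of 85.0 to 8.89 FPKM. The 25 largest rises ended at 2.39 log2 units and the 25 largest falls at -2.23.

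ENSMUSG00000037033 had the largest rise. It measured 1.018 and 1.319 FPKM in NC (54 and 68 reads) and 30.88 and 32.47 FPKM in sh4 (1917 and 2003 reads). Its mean was 27.1 times as high in sh4 as in NC, and by mean level it moved from place 11390 to place 1690 among the tested IDs. The log2 fold change was 3.92 (SE 0.08, 95% interval 3.75 to 4.09, limma adjusted p = 3.52e-13). In sh1 the same ID measured 0.1425 and 0.2195 FPKM, 8 and 13 reads, below both NC libraries. The log2 fold change there was -0.87 (SE 0.08, adjusted p = 3.54e-07). The direct test of sh4 against sh1 gave a difference of 4.79 log2 units (SE 0.08, adjusted p = 5.71e-14). With a pseudocount of 0.1 that difference was 6.83, because the sh1 level is far below 1 FPKM.

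ENSMUSG00000057666 had the second-largest rise. It measured 2.575 and 2.588 FPKM in NC (168 and 164 reads) and 44.62 and 47.46 FPKM in sh4 (3406 and 3600 reads), a mean 17.8 times as high. The sh1 libraries disagreed with each other, at 5.894 and 41.30 FPKM (407 and 3007 reads). The log2 fold change of sh4 against NC was 3.71, with an SE of 1.04 that came from the sh1 replicates, a 95% interval of 0.51 to 6.92 and a limma adjusted p of 0.0488. In a fit over the 4 NC and sh4 libraries alone the adjusted p was 2.61e-11. With sh1 in the fit, the call was lost when any 1 of the 4 libraries was left out (adjusted p = 0.169 to 0.172), by voom (0.138) and with the replicate block (0.0789). The difference between sh4 and sh1 was 1.46 log2 units (95% interval -1.74 to 4.66, adjusted p = 0.327).

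ENSMUSG00000029378 had the largest fall. It measured 426.9 and 410.3 FPKM in NC (8190 and 7645 reads) and 32.04 and 28.79 FPKM in sh4 (719 and 642 reads). Its mean was 13.8 times as high in NC as in sh4, and it moved from place 85 to place 1761 by mean level. The log2 fold change was -3.74 (SE 0.05, 95% interval -3.86 to -3.63, limma adjusted p = 5.11e-14). The sh1 libraries, at 30.30 and 30.65 FPKM, lay between the sh4 libraries. The difference between sh4 and sh1 had a 95% interval of -0.12 to 0.11 log2 units (adjusted p = 0.952).

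ENSMUSG00000039518 had the second-largest fall. It measured 83.46 and 86.44 FPKM in NC (3529 and 3550 reads) and 8.411 and 8.424 FPKM in sh4 (416 and 414 reads). The mean was 10.1 times as high in NC, and the log2 fold change was -3.19 (SE 0.07, 95% interval -3.33 to -3.05, limma adjusted p = 4.82e-13). In sh1 it measured 9.097 and 10.66 FPKM, above both sh4 libraries. The difference of sh4 from sh1 was -0.20 log2 units (95% interval -0.35 to -0.06, adjusted p = 0.0174). It missed the threshold without sh4 replicate 1 (adjusted p = 0.0635) and without sh4 replicate 2 (0.0586), with total-read scaling (-0.13, 0.103) and with 1 common FPKM sum (-0.096, 0.246).

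**Figure D4:**
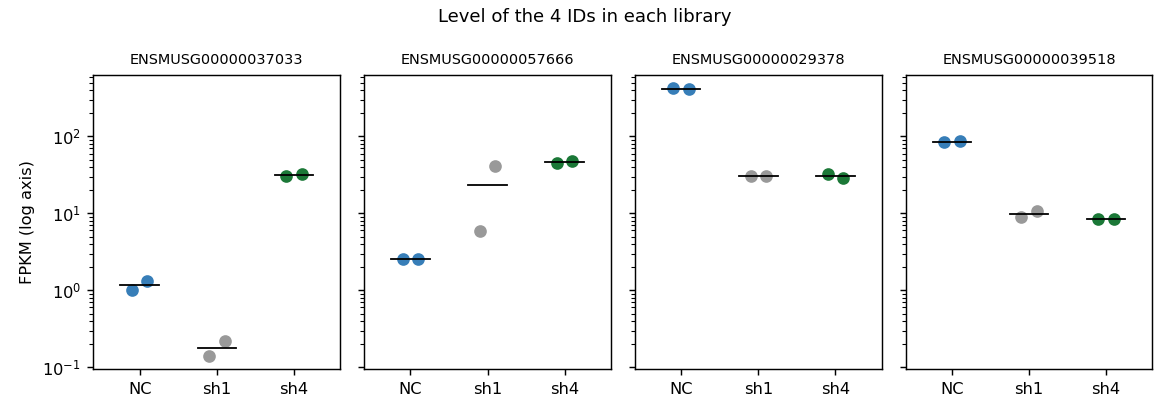
FPKM on a log axis for the 4 named IDs in each of the 6 libraries, with points for libraries and lines for group means (n = 2 each). In the first panel sh4 lies above NC and sh1 below it, in the second the sh1 libraries are at 5.894 and 41.30 FPKM, and in the last 2 panels sh1 and sh4 both lie below NC.

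Over all tested IDs, sh4 was higher than sh1 for 3758 IDs and lower for 3182, which is 56.4% of those tested (limma, adjusted p below 0.05, n = 2 against 2). The median absolute difference between an sh4 and an sh1 library was 0.26 to 0.28 on the log2(FPKM + 1) scale, against 0.37 to 0.40 between sh4 and NC. The share of reads that differed was 13.8% to 14.2% between sh4 and sh1, against 16.3% to 17.0% between sh4 and NC. The sh4 libraries were nearer to sh1 than to NC in every pairing by both measures, and no pairing came near the replicate values. The filter used NC and sh4 alone. It kept IDs at 1 FPKM or more only in NC and dropped those at that level only in sh1. This favours a shorter distance of sh4 to sh1 than to NC, to an extent that was not tested.

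Few IDs were at or near 0 in one group and plain in the other. A set of 32 IDs had no more than 3 reads in either NC library and at least 30 in each sh4 library. They held 30 to 138 reads in the sh4 libraries, with a median mean of 48.8 reads, and mean levels of 0.288 to 3.70 FPKM. Of the 32, 9 had 0 reads in both NC libraries, and 13 reached the 1 FPKM filter, which they could do only through sh4. Taking 3 reads in each NC library as the floor, the IDs were at least 8.61-fold to at least 37.2-fold higher in sh4, with a median bound of 13.6.

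The sh1 libraries were mixed for these 32 IDs. At most 3 reads in both sh1 libraries were seen for 11, 30 or more in both for 3, and values between for 18. The ID with the most reads in sh4 had 130 and 138 there, 3 and 0 in NC, and 13 and 9 in sh1. One ID, at 49 and 52 reads in sh4 and 0 and 1 in NC, had 91 and 73 reads in sh1. The reverse pattern, 30 or more reads in both NC libraries and at most 3 in both sh4 libraries, was found for 5 IDs, with 32 to 68 reads in NC. They were at least 13.2-fold to at least 24.2-fold lower in sh4 against the same floor, and 0 of the 5 reached 30 reads in both sh1 libraries. The patterns were picked by their NC and sh4 reads, so only the sh1 reads are independent of the choice. Both sh4 libraries were deeper than both NC libraries, so 30 reads stood for a lower level in sh4. The counts of 32 and 5 IDs are therefore not strictly comparable.

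**Figure D5:**
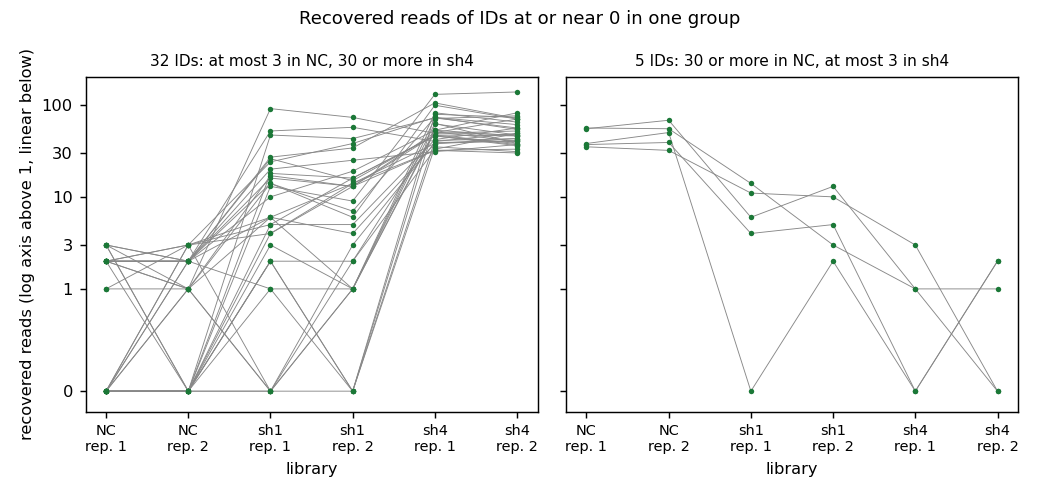
Recovered reads (vertical axis, log above 1 and linear below) in the 6 libraries for the 32 IDs with at most 3 reads in NC and 30 or more in sh4 (left) and the 5 IDs with the reverse pattern (right), 1 line an ID. In the sh1 libraries, the 32 IDs spread from 0 to 91 reads.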

How the data were processed

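RNA of 6 libraries was extracted with Trizol and prepared by Illumina protocols, per the labels' protocols. The authors deposited 1 FPKM value per gene ID and library, per the file headers. HISAT2 2.0.5 and the build hg18 are named in the submitters' processing notes. That build is human, which is at odds with the mouse IDs of the deposited values. The organism of the RNA was not resolved here. For the read counter, annotation and any filter, the tool or version is not given in the sources read. Files were joined on the ID, and groups were taken from the sample titles.

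Whole reads and whole gene lengths were recovered from the steps between FPKM values. For 25747 of 25747 IDs above 0 they rebuilt every value within 1e-06 FPKM plus 1e-07 of the value, taking the shortest length that did so. Each library's recovered denominator followed its median-of-ratios size factor (largest departure from proportion 3.22e-10%), so the deposited values already hold the typical gene constant between libraries.

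limma 3.58.1 (R 4.3.3) was fitted to log2(FPKM + 1) over 3 group means of all 6 libraries, with 3 residual degrees of freedom, robust empirical Bayes and the variance trend on mean recovered reads. The scale understates changes of low genes. P-values are two-sided and Benjamini-Hochberg adjusted over the 12310 IDs of each comparison, with a threshold of 0.05. The recovery of reads and the fit were tested on simulated data. Far fewer IDs changed there than were called here, none of them at low read numbers. The rule for naming genes needed symbols, which 0 IDs had. Its fallback named 2 IDs that rose and 2 that fell by the largest log2 fold change (adjusted p below 0.05, mean of at least 5 FPKM, groups not overlapping). Members, classes and lists were chosen with earlier results of these data known. In all, 15 alternative settings were tried.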

Additional observations from a re-analysis of the deposited data

Results flagged for a closer look

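The direct test of sh4 against sh1 set apart 2 of the 4 named IDs. For ENSMUSG00000037033 the log2 fold change against NC was 3.92 in sh4 and -0.87 in sh1, a difference of 4.79 (limma adjusted p = 5.71e-14), with both sh4 libraries above and both sh1 libraries below NC. For ENSMUSG00000039518 the values were -3.19 and -2.99, a difference of -0.20 (limma adjusted p = 0.0174). This call was lost in 7 of 13 alternatives, among them total-read scaling (-0.13, adjusted p = 0.103) and 1 common FPKM sum (-0.096, adjusted p = 0.246). Both comparisons use the same NC libraries, and the cause of either difference was not tested.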

How the results depend on the processing

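The number of IDs changed in sh4, 8610, lay between 5850 (mean of at least 5 FPKM, 7689 IDs tested) and 8749 (replicate block) under the alternatives run, apart from a required change of 1 log2 unit, which leaves 1284 by construction. Leaving out 1 library gave 7805 to 8003 IDs. Higher IDs outnumbered lower ones in each of these except with a mean of at least 5 FPKM (2921 and 2929), and their share of the calls went from 49.9% to 54.7%. The largest shift of the median fold change was 0.04 log2 units, with the FPKM of each library brought to 1 common sum. That sum leans on the ID of 57 bp, which was higher in NC. Deviations of same-numbered NC and sh4 libraries correlated at 0.13, to which the labels attach no pairing, and the replicate block removed the call of ENSMUSG00000057666 alone among the 4 named IDs.

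Against NC, the calls of the other 3 named IDs were kept in 14 of 14 alternatives each, which the choice of large changes partly sets. Against sh1, the sign of the difference at ENSMUSG00000029378 (-0.0044) turned with 1 common FPKM sum (0.112) and with total-read scaling (0.0736), and ranged from -0.0791 to 0.0702 when 1 library was left out, none of them called. For these turns the cause was not tested. At ENSMUSG00000039518 the call against sh1 was lost in 7 of 13 alternatives with the same direction (-0.23 to -0.10 over all). Among IDs under 50 reads, the median standard error of 0.261 limited what could be called.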
